A study of Mus musculus with 2 samples.

Results

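The immediate early transcription factor genes of the AP-1, Egr and Nr4a families were described in the adrenal gland of young mice. They were chosen by symbol as 10 genes out of 55536 in the gene table: Fos, Fosb and Fosl2, Jun, Junb and Jund, Egr1, and Nr4a1, Nr4a2 and Nr4a3. The rule uses no measured value, and all 10 genes had enough counts to be compared between the libraries. Total RNA was sequenced from adrenal glands of B6CASTF1/J females, the F1 hybrids of C57BL/6J and CAST/EiJ mice, at 10 days of age, with no treatment named in the labels. There was 1 group with 2 libraries, replicate 2 and replicate 1, each made from 300 ng of RNA with added ERCC spike-in RNA. The labels of the tissue samples name females 04 and 03, but both library descriptions name female 03 and the same cDNA number, and both samples have 1 donor entry. Whether n = 2 stands for separate animals therefore could not be told, and the SDs may not measure a spread between animals. RNA of neighbouring tissues was unequal between the libraries, and its part in the SDs was not tested. Kidney markers, for 1, summed to 235 TPM in replicate 2 and 1.17 TPM in replicate 1.

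Immediate early genes are transcribed within minutes of a stimulus, without new protein synthesis, and their RNAs are short-lived. Fos and Jun proteins pair through leucine zippers to form AP-1, which binds the element TGACTCA. EGR1 is a zinc finger factor of GC-rich sites, and the NR4A proteins are orphan nuclear receptors that bind DNA as monomers, as dimers or, for NR4A1 and NR4A2, with RXR. In the adrenal cortex ACTH raises cAMP, and protein kinase A phosphorylates CREB at cAMP response elements. In chromaffin cells nerve stimulation raises calcium and cAMP. Serum response factor (SRF) with its ETS partners, which MAP kinases activate, is the other well known route to Fos and Egr1. Nr4a1 is known as an ACTH-induced regulator of steroidogenic genes.

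The 2 libraries held 33378436 expected counts in replicate 2 and 35636846 in replicate 1, and 14179 genes reached 1 TPM (a level per transcript length, scaled to a fixed total) in both. Across these genes and all others the Pearson correlation of log2(TPM + 1) between the libraries was 0.979, a description across genes that are not independent replicates. The spike-in share of counts was 0.929% for replicate 2 and 0.979% for replicate 1. All 9 cortex steroid genes of a marker list were detected, with summed levels of 4171 TPM in replicate 2 and 3876 TPM in replicate 1. All 8 chromaffin genes were detected as well, at 1174 and 1234 TPM in replicates 2 and 1. RNA of neighbouring tissues was also present and unequal, as given with the comparison between the libraries.

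The 10 genes spanned a wide range of levels, and each family had 1 leading member. Nr4a1 had the highest mean at 56.8 ± 35.5 TPM (SD, n = 2), followed by Fosl2 at 55.2 ± 0.255 TPM and Jund at 46.9 ± 3.31 TPM. Jun stood at 16.1 ± 0.0636 TPM, Junb at 13.7 ± 5.97 TPM, Egr1 at 11.2 ± 3.32 TPM and Nr4a3 at 9.97 ± 1.00 TPM. Fos averaged 3.35 ± 2.02 TPM, Nr4a2 2.09 ± 1.04 TPM and Fosb 0.485 ± 0.106 TPM. Among 22015 nuclear protein-coding genes Nr4a1 ranked 988 and Fosl2 1028, whereas Fos ranked 10581 and Fosb 14312. Neighbours in this order whose values did not overlap were Fosl2 above Jund, Jund above Jun, Nr4a3 above Fos, and Nr4a2 above Fosb. Between Nr4a1 and Fosl2, Jun and Junb, Junb and Egr1, Egr1 and Nr4a3, and Fos and Nr4a2 the ranges overlapped, so their order is within the spread between the libraries. Beyond neighbours, Nr4a1 in replicate 1 (31.63 TPM) also stood below Jund in replicates 2 and 1 (44.59 and 49.27 TPM). Junb in replicate 1 (9.49 TPM) stood below Nr4a3 in replicate 2 (10.68 TPM).

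**Figure D1:**
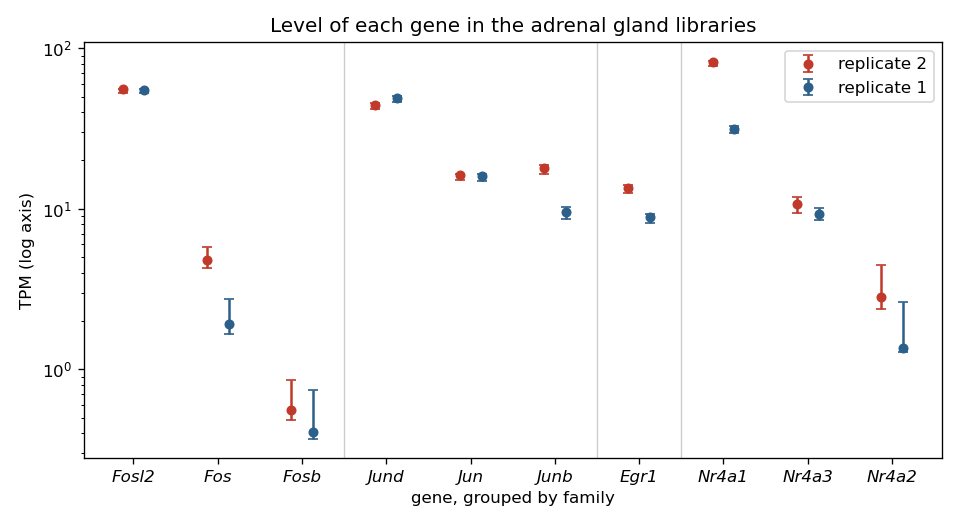
Level of each gene in TPM on a log axis, grouped by family, with replicate 2 left of replicate 1. Bars are the authors' deposited credibility intervals. The intervals of Nr4a1, Fos, Junb, Egr1 and Jund do not overlap between the libraries, with Jund the lower in replicate 2. Fosl2 and Jun nearly coincide.

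The DNA upstream of the RefSeq starts of these genes was examined because their induction by cAMP is known to run through promoter elements. RefSeq promoters on GRCm38.p6 were matched for 9 of the 10 genes, and the 250 bases before the RefSeq start were searched on both strands. The core of the cAMP response element, TGACG or CGTCA, was present in 6 of the 9 promoters. Of all 32851 promoters, 17.8% held at least 1 core, 3.90% at least 2 and 0.137% at least 4. Nr4a1, Nr4a2 and Nr4a3 each held 4 cores, Fos 2, Fosb 1 and Junb 1, and none was found for Fosl2, Jun or Jund. Of the other immediate early genes listed further on, 18 of 28 with a promoter entry held a core. The sequences of 5 of these genes are printed 5′ to 3′ on the gene's strand with the cores in capitals, and the Jun promoter is set beside them as one without a core.
Nr4a1 upstream, chr15:101266596-101266845, plus strand: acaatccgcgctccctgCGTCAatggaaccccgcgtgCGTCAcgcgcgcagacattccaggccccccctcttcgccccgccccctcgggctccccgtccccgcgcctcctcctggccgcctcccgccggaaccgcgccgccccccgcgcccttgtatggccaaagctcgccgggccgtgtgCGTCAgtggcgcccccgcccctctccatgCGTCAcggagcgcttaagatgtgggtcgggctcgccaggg
Nr4a2 upstream, chr2:57124004-57124253, minus strand: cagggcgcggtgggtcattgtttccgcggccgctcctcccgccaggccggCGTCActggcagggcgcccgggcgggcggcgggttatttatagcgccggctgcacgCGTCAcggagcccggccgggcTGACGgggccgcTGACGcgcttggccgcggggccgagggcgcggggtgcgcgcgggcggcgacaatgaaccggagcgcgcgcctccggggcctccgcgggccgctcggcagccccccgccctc
Nr4a3 upstream, chr4:48045055-48045152, plus strand: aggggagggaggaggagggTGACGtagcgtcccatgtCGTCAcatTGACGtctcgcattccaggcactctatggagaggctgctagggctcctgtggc
Fos upstream, chr12:85473640-85473889, plus strand: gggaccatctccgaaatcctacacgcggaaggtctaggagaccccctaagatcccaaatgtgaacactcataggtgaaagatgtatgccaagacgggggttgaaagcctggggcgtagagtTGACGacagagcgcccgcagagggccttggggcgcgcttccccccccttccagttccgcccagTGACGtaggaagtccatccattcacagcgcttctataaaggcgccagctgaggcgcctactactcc
Junb upstream, chr8:84978749-84978998, minus strand: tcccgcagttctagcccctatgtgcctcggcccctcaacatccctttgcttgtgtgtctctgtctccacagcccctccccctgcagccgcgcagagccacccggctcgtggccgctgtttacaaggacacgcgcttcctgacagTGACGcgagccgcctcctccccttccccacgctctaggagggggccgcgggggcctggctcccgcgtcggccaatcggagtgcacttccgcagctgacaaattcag
Jun upstream, chr4:95052223-95052472, minus strand: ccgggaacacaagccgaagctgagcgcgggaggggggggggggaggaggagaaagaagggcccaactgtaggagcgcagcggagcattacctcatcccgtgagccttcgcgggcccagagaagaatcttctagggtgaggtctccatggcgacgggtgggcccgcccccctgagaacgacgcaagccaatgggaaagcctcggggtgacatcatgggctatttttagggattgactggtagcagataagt

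All 4 cores of Nr4a1 lay on the strand opposite to the gene, at 233, 213, 69 and 40 bases before the start. In Nr4a2 they lay at 200, 144, 123 and 111 bases, and in Nr4a3 at 231, 213, 205 and 147 bases. The Nr4a3 stretch is shorter, with 3 of its 4 cores, because the annotated transcript of the gene table begins upstream of the RefSeq start. In Fos the cores lay at 129 and 66 bases, in Junb at 106 bases and in Fosb at 60 bases. For Fosl2 and Jund the searched window does not adjoin the annotated gene start. The RefSeq start of Fosl2 is at 32136472, inside the gene that begins at 32135801, and that of Jund is at 70697739, upstream of the gene start at 70698949. The full palindrome TGACGTCA, found in 1.55% of all promoters, was in none of the 9, and neither was the AP-1 element TGACTCA or TGAGTCA, found in 4.46%. AAAGGTCA or TGACCTTT, the monomer element of NR4A receptors, and the CArG box of SRF, found in 1.34% and 1.47% of all promoters, were also absent from these windows. The TATA box core TATAAA or TTTATA, found in 12.4% of all promoters, occurred once in Fos and once in Nr4a2. A match is a description of letters and not a bound site, and no match says only that these letters are not in this window.

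**Figure D2:**
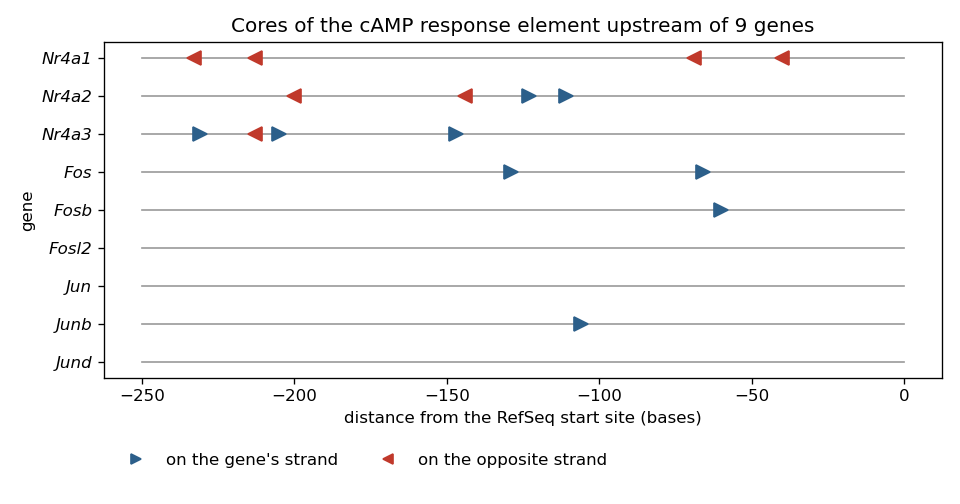
Position of each core of the cAMP response element (bases before the RefSeq start, 0 at the right) in 9 genes, with arrows for the strand. Nr4a1, Nr4a2 and Nr4a3 hold 4 each, and Fosl2, Jun and Jund have none in the window.

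Short-lived RNAs of this kind carry AU-rich elements in the 3′ UTR, which proteins such as ZFP36 bind to speed decay. The pentamer ATTTA was counted, overlaps included, in the 3′ UTR of the leading coding transcript of each gene in GENCODE M21. All 10 genes held at least 1, against 67.9% of 12501 detected protein-coding genes and 23 of 28 other immediate early genes. Fosl2 held 8, Nr4a3 5, Fos and Jun 4 each, and Nr4a1 and Nr4a2 3 each. Per kb of 3′ UTR the density was 5.52 in Nr4a1, 4.91 in Fos, 4.12 in Junb and 3.24 in Jun. It was 2.26 in Nr4a2, between 1.62 and 1.88 in Nr4a3, Egr1, Fosl2 and Jund, and 0.468 in Fosb. The median was 1.28 over the detected genes and 2.26 over the other immediate early genes. The stricter nonamer TTATTTATT occurred in Fos and Fosl2, and in 7.39% of the detected genes. The 30-base windows with 2 pentamers, in capitals, show how closely they are spaced.
Fos-201: cgtttttattgtgttttcaATTTATTTAtt
Fosl2-201: aagaaattgacATTTAttttattATTTAtt
Nr4a1-201: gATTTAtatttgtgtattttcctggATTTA
Jun-201: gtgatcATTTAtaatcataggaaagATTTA

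In the Fos family, Fosl2 (FRA-2, a Fos protein without a strong activation domain) made up nearly all of the RNA. Fosl2 had 55.41 TPM in replicate 2 and 55.05 TPM in replicate 1, from 9739 and 10555 expected counts. Fos, the founding partner of Jun, had 4.78 and 1.92 TPM in replicates 2 and 1 (258 and 104 counts). Fosb, whose splicing also yields a truncated protein, had 0.56 and 0.41 TPM (62 and 48 counts). The ranges of the 3 genes did not overlap. Fosl2 took 91.2% of the family's TPM in replicate 2 and 95.9% in replicate 1, Fos 7.87% and 3.35%, and Fosb 0.922% and 0.715%. On the log2 TPM scale Fosl2 exceeded Fos by 4.19 ± 0.92 (SD, n = 2) and Fos exceeded Fosb by 2.66 ± 0.61. In mm10, Fos lies on chromosome 12 (85473890 to 85477273), Fosb on chromosome 7 (19302696 to 19310051) and Fosl2 on chromosome 5 (32135801 to 32157842).

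In the Jun family, Jund, the member known for broad expression in resting cells, led in both libraries. Jund had 44.59 TPM in replicate 2 and 49.27 TPM in replicate 1 (2187 and 2602 counts). Jun, which can pair with itself as well as with Fos proteins, had 16.14 and 16.05 TPM (1559 and 1669 counts). Junb, often a weaker activator than JUN, had 17.93 and 9.49 TPM in replicates 2 and 1 (952 and 546 counts). The order of Junb and Jun thus differed between the libraries in these values. The log2 TPM ratio of Junb over Jun was 0.15 in replicate 2 and -0.76 in replicate 1, a mean of -0.30 ± 0.64. In the other quantification that the authors deposited it was -0.0073 in replicate 2 and -0.90 in replicate 1, so the order did not change there. Jund took 56.7% and 65.9% of the family's TPM in replicates 2 and 1, Junb 22.8% and 12.7%, and Jun 20.5% and 21.5%. Jund exceeded Junb by 1.85 ± 0.75 on the log2 scale. Jun lies on chromosome 4 (95049034 to 95052222), Junb (84974484 to 84978718) and Jund (70698949 to 70700616) on chromosome 8.

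Each Jun gene overlaps a gene on the other strand, and the sources used here do not say whether counting was by strand. Without the strand, a read in a shared stretch could come from either gene. Junb shares 351 bases with Prdx2, a peroxiredoxin gene of 4709 expected counts in replicate 2 and 5361 in replicate 1. Prdx2 ends at 84974834, which the single-exon Junb-201, 1809 bases long from its start at 84978718, does not reach. Junb-201 held 950 and 546 counts in replicates 2 and 1, and Junb-202 held 2 and 0. Prdx2 stood at 156.86 TPM in replicate 2 and 166.14 TPM in replicate 1, and Junb at 17.93 and 9.49 TPM. Whether reads of Prdx2 had a part in the Junb counts was not tested. Jun shares 689 bases with the antisense gene Junos, which had 31 and 32 counts in replicates 2 and 1. Jund shares 919 bases with Gm11175, which lies wholly inside it and had 19 and 30 counts. All 10 genes had whole-number counts and a posterior SD of the count of 0 in both libraries. No counts were therefore divided with another gene, also not between Jund and Gm11175.

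Egr1, the single Egr member of the set, had 13.57 TPM in replicate 2 and 8.87 TPM in replicate 1, from 1337 and 947 counts. Of the other Egr genes, Egr3 stood at 0.52 and 0.59 TPM in replicates 2 and 1. The corepressors that bind EGR1, Nab1 and Nab2, stood at 14.49 and 15.03 TPM and at 5.79 and 6.26 TPM. Egr1 was thus the only one of these genes named here with the higher level in replicate 2. Egr1 lies on chromosome 18 (34859823 to 34864984), and its transcript Egr1-202 held 85.2% of its TPM in replicate 2 and 83.7% in replicate 1. Egr1-201, the other transcript, encodes the same 533 codons.

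In the Nr4a family, Nr4a1 (NUR77) led in both libraries. Nr4a1 had 81.88 TPM in replicate 2 and 31.63 TPM in replicate 1, from 5474 and 2422 counts. Nr4a3 (NOR-1) had 10.68 and 9.26 TPM (1537 and 1515 counts). Nr4a2 (NURR1, needed for midbrain dopamine neurons) had 2.82 and 1.35 TPM in replicates 2 and 1 (222 and 155 counts). The 3 genes kept this order in both libraries, but their shares shifted. Nr4a1 took 85.8% of the family's TPM in replicate 2 and 74.9% in replicate 1, and Nr4a3 took 11.2% and 21.9%. The family summed to 95.38 TPM in replicate 2 and 42.24 TPM in replicate 1, whereas the Fos family had 60.75 and 57.38 TPM and the Jun family 78.66 and 74.81 TPM. Nr4a1 lies on chromosome 15 (101254269 to 101274795), Nr4a2 on chromosome 2 (57106830 to 57124003) and Nr4a3 on chromosome 4 (48045153 to 48086447).

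The libraries were then compared gene by gene. With 1 group there is no test over samples: for 2 libraries the smallest exact p that sign flips can give, two-sided, is 0.5. An exact two-sided binomial test of the counts, scaled by TMM and adjusted with the Benjamini-Hochberg method over 18883 genes, compares these 2 libraries only, and its p-values and intervals cover counting error. A gene was called different at an adjusted p under 0.05 and at least 2-fold. Fos and Nr4a1 were called higher in replicate 2 and no member was called higher in replicate 1. Over all genes tested, 2.74% were called higher in replicate 2 and 4.14% higher in replicate 1.

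Fos was 2.76-fold higher in replicate 2 (95% interval 2.19 to 3.51, exact binomial adjusted p = 5.95e-19), and Nr4a1 was 2.52-fold higher (2.40 to 2.64). Among the 18883 ratios, sorted by the excess in replicate 2, Fos ranked 402 and Nr4a1 434. Junb was 1.94-fold higher (1.75 to 2.16), so its interval spans the 2-fold limit. Nr4a2 at 1.60-fold (1.29 to 1.97), Egr1 at 1.57-fold (1.45 to 1.71) and Nr4a3 at 1.13-fold (1.05 to 1.21) were higher in replicate 2 beyond counting error but under the limit. With no fold limit 6 members were therefore higher in replicate 2 and 0 in replicate 1, and 14.0% and 12.5% of all genes tested were so in replicates 2 and 1. Without the limit a gene with more counts passes at a smaller ratio. Nr4a3 passed with 1537 and 1515 counts in replicates 2 and 1, and Fosb, at a larger ratio, did not with 62 and 48. These shares are not matched to the counts of the members or of the lists below.

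The other 4 members did not pass the test after adjustment over all genes, also with no fold limit. The intervals are unadjusted. Without that limit the calls depended on the setting: Fosl2 passed with spike-in scaling and in the other quantification, Fosb in the other quantification and Jund, lower in replicate 2, with scaling by total count, where Nr4a3 no longer passed. Fosb was 1.44-fold higher in replicate 2 with an interval of 0.971 to 2.14, which includes 2-fold. Jun at 1.04-fold (0.971 to 1.12), Fosl2 at 1.03-fold (1.00 to 1.06) and Jund at 0.936-fold (0.884 to 0.992) had narrow intervals near 1, with exact binomial adjusted p of 0.471, 0.143 and 0.0813, and the log2 ratios of Jun and Fosl2 turned below 0 with scaling by total count. The median log2 ratio of the 10 genes was 0.59, beside -0.01 over all genes tested. Fosl2, Jund and Jun, 3 of the 4 most abundant members, were thus close between the libraries, and Nr4a1, the other one, was not.

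**Figure D3:**
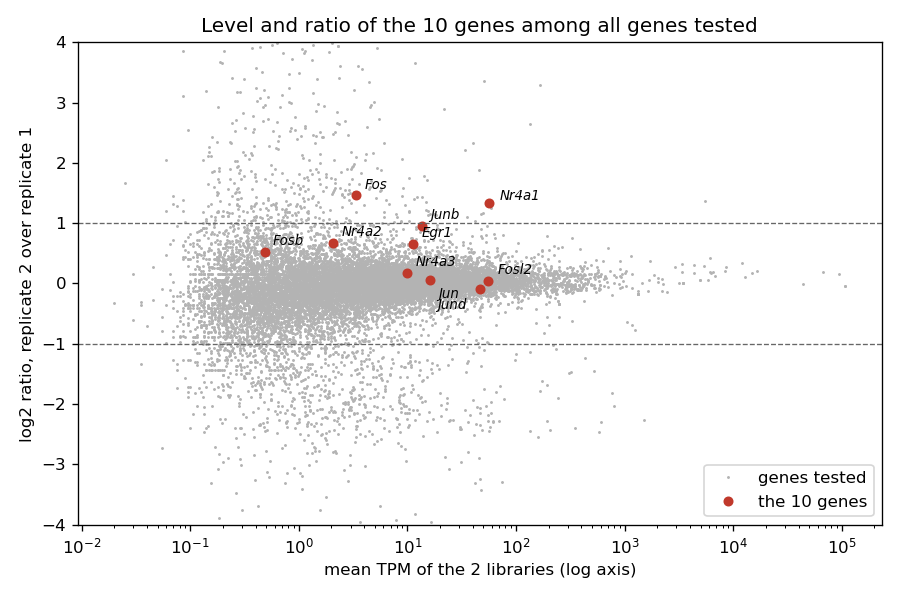
Log2 ratio of replicate 2 over replicate 1 against mean TPM (log axis) for the genes tested (grey) and the 10 genes (red), with dashed lines at 2-fold. Fos and Nr4a1 lie above the upper line, and 186 genes with a log2 ratio beyond 4 in either direction are not drawn.

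A list of 30 other immediate early genes, 29 of them with enough counts, was compared in the same way. None was called in either direction, but with no fold limit 17 of the 29 were higher in replicate 2 and 0 in replicate 1. The median log2 ratio was 0.28, the range ran from -0.33 to 0.93, and 22 genes lay above 0 and 7 below. The 3 most abundant were Rgs2, a regulator of G protein signalling, Mcl1, an anti-apoptotic gene, and Per1, a clock gene that cAMP also induces. Rgs2 had 116.36 TPM in replicate 2 and 83.76 TPM in replicate 1, 1.45-fold (1.39 to 1.51), and Per1 had 28.39 and 20.84 TPM, also 1.45-fold (1.37 to 1.54). Mcl1 had 38.20 and 38.19 TPM in replicates 2 and 1. The largest ratio of the list, chosen after its value was seen, was that of the stress-inducible gene Gadd45g at 1.90-fold (1.65 to 2.20), with 17.19 and 9.37 TPM. The log2 ratios of Fos at 1.46, Nr4a1 at 1.33 and Junb at 0.96 lay above every gene of this list. The intervals of Fos and Junb overlapped that of Gadd45g, and the interval of Nr4a1 did not.

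**Figure D4:**
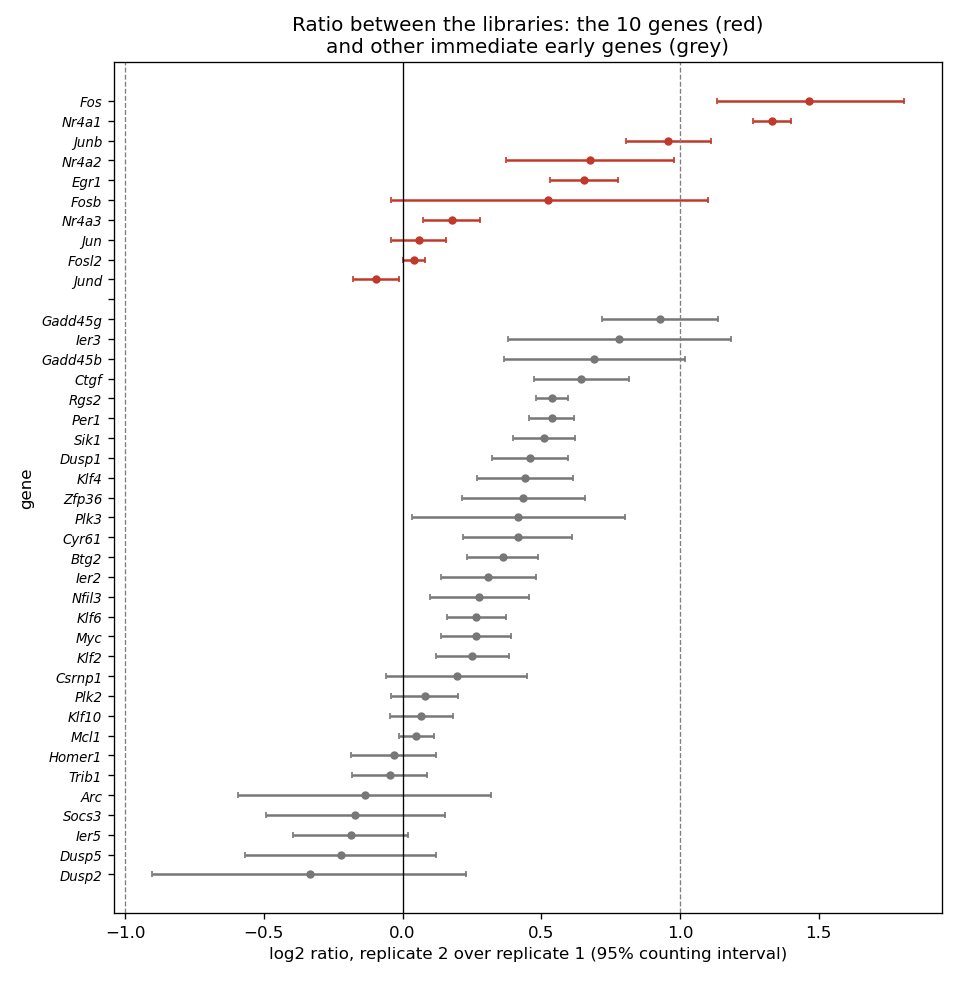
Log2 ratio of replicate 2 over replicate 1 with 95% counting intervals for the 10 genes (red, upper block) and 29 other immediate early genes (grey), with dashed lines at 2-fold. Fos and Nr4a1 lie to the right of all grey points, while Jun, Fosl2 and Jund sit near 0.

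No gene of the lists that carry signals to these promoters was called between the libraries. These are RNA levels, and whether the proteins were activated, as by phosphorylation, was not measured. None of the 8 genes of the CREB family and its coactivators was called, and the median log2 ratio was -0.02. Ep300 and Crebbp, acetyltransferase coactivators, had 21.95 and 22.65 TPM and 18.78 and 18.03 TPM in replicates 2 and 1, and Atf1, a CREB relative, had 18.35 and 18.58 TPM. With no fold limit 1 gene of this list was higher in replicate 2 and 1 in replicate 1. Named after their values were seen, these were Crem, whose inducible product represses cAMP targets, at 1.31-fold (1.14 to 1.51), and Crtc1, a CREB coactivator, at 0.881-fold (0.802 to 0.968).

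With no fold limit, too, no gene of the next 5 lists was higher in either library. None of the 6 genes of SRF and its cofactors was called (median log2 ratio -0.10). Elk4 and Elk3, ETS partners of SRF, had 40.65 and 42.29 TPM and 21.62 and 23.23 TPM in replicates 2 and 1, and Srf had 10.43 and 11.10 TPM. Of the 5 MAP kinase genes none was called (median 0.04), with Mapk3 at 50.20 and 52.16 TPM and Mapk14 at 23.51 and 24.56 TPM in replicates 2 and 1. The partner genes of the 10 were similarly even. Of 9 other AP-1 and related bZIP genes none was called (median 0.03), with Atf2, which pairs with JUN, at 26.97 and 29.04 TPM, Atf7 at 28.33 and 26.67 TPM and Mafg at 14.04 and 15.35 TPM. Neither the 4 other Egr and Nab genes (median -0.09) nor the 3 RXR genes (median -0.02) held a call. Rxrb had 22.44 and 25.13 TPM, Rxra 16.03 and 16.27 TPM and Rxrg 8.30 and 9.28 TPM in replicates 2 and 1. In all 6 of these lists together no gene was called.

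Proteins that bind AU-rich elements were also without a call among 6 genes (median 0.04), though without the fold limit 3 stood higher in replicate 2 and 1 stood higher in replicate 1. Named after their values were seen, these were Zfp36, which the immediate early list also holds, Zfp36l1 and Zfp36l2, and on the other side Hnrnpd. Hnrnpd had 58.86 TPM in replicate 2 and 72.67 TPM in replicate 1, Zfp36l1 62.76 and 62.79 TPM and Khsrp 29.71 and 32.73 TPM. Heat shock genes, which respond to tissue stress, held no call among 6 (median 0.26), and without the fold limit Hspa1a, Hspa1b, Hspa8 and Hsph1 stood higher in replicate 2 and Hspb1 in replicate 1, again named after their values were seen. Hspa1a and Hspa1b are near-identical copies, so the division of counts between them is uncertain. Hspa8 had 395 and 380 TPM in replicates 2 and 1, Hspb1 17.58 and 29.72 TPM and Hsph1 10.43 and 9.93 TPM. Their part in the differences of the 10 genes was not tested.

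Markers of several other tissues also differed between the libraries. All 10 kidney markers were called higher in replicate 2, with summed levels of 235 TPM in replicate 2 and 1.17 TPM in replicate 1, where Slc22a6 was at 0. All 8 liver markers were called higher in replicate 1, with 1136 TPM in replicate 2 and 5893 TPM in replicate 1. Of 8 skeletal muscle markers 6 were called higher in replicate 1 and 1, the myosin gene Myh4, in replicate 2, with 1049 and 3115 TPM in replicates 2 and 1. Red cell markers summed to 2740 and 4644 TPM with 4 of 9 called higher in replicate 1. Lymphocyte markers summed to 14.9 and 29.5 TPM, with 3 of 6 called higher in replicate 1 (Cd3e, Cd3g and Ms4a1). Fat markers summed to 5892 TPM in replicate 2 and 4926 TPM in replicate 1, with 1 of 8, Retn, called higher in replicate 2. With no fold limit all 8 fat markers stood higher in replicate 2, beside 14.0% of all genes tested. All 9 red cell and all 6 lymphocyte markers then stood higher in replicate 1, beside 12.5%. Marker genes are named in this paragraph with their values already known, and these lists differed between the libraries along with Fos and Nr4a1.

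Markers of the gland itself and of its vessels differed less. Cortex steroid genes had a median log2 ratio of 0.10 with no call among 9, chromaffin genes -0.09 with none among 8, endothelial genes 0.10 and smooth muscle and pericyte genes 0.21 with none among 6 each, and macrophage genes -0.23 with none among 7. With no fold limit, Star, Cyp11a1, Cyp21a1, Cyp11b1 and Nr5a1 of the cortex list and Pnmt of the chromaffin list stood higher in replicate 2. Cyp11b2 and Nr0b1 of the cortex list and Th, Dbh, Chga, Chgb and Npy of the chromaffin list stood higher in replicate 1. These names were chosen after their values were seen. Also without the limit, 4 of 6 endothelial and 5 of 6 smooth muscle and pericyte genes stood higher in replicate 2. In both of these lists 0 stood higher in replicate 1. Of the 7 macrophage genes 0 stood higher in replicate 2 and 1 in replicate 1. Star, which carries cholesterol into mitochondria, was 1.51-fold higher (1.49 to 1.53), and Pnmt, which makes adrenaline, 1.45-fold (1.398 to 1.503). In bulk tissue fewer cells of a type and less RNA per cell cannot be told apart. The part of each of these tissues in the levels and ratios of the 10 genes was not tested.

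Transcripts of the 10 genes were compared between both deposited quantifications. Jun, Jund and Junb-201 are single-exon transcripts and hold all or nearly all of their gene's TPM. Fosl2 had 2 annotated retained-intron transcripts beside the coding Fosl2-201. Together these held 20.25% of its TPM in replicate 2 and 18.82% in replicate 1, and 29.0% and 29.6% in the other quantification. Fosl2 was therefore alike between the libraries in its transcript types too.

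Nr4a1 differed in this respect. Its retained-intron transcript Nr4a1-204, which starts at 101272861 on chromosome 15, had 184 counts in replicate 2 and 16 in replicate 1, at 7.43 and 0.59 TPM. That was 9.07% of the gene's TPM in replicate 2 and 1.87% in replicate 1, and 10.3% and 2.30% in the other quantification. Its ratio was 12.8-fold (95% counting interval 7.68 to 22.9), and 11.4-fold (6.71 to 20.8) in the other quantification, larger than the 2.52-fold of the whole gene and outside that interval. Over 12790 retained-intron transcripts tested, 3.70% were called higher in replicate 2, and Nr4a1-204 ranked 126 by ratio. It was the only one called of 4 such transcripts of the 10 genes, the others being Fosl2-202 at 1.01-fold (0.897 to 1.14), Fosl2-203 at 1.23-fold (1.05 to 1.46) and Fosb-204 at 2.55-fold (0.991 to 7.32). Counted over coding transcripts alone, Nr4a1 still had a log2 ratio of 1.29. This comparison was added after the data were seen. Among 9 retained-intron transcripts of the other immediate early genes, 1 was called higher in replicate 2, Sik1-204 with 37 and 6 counts.

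Both quantifications placed most Nr4a1 RNA in a coding transcript of 601 codons, but not in the same one. The first put 84.85% of its TPM in replicate 2 and 91.96% in replicate 1 into Nr4a1-201, which has 7 exons and starts at 101266846. The other put 88.8% and 95.4% into Nr4a1-202, which has 8 exons and starts 12577 bases upstream, and under 0.1% into Nr4a1-201. The start from which Nr4a1 was transcribed therefore could not be settled from these tables, and the Nr4a1 promoter printed above is that of the downstream start.

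Isoform assignments of Nr4a2 and Fosb rested on few counts. For Nr4a2, replicate 2 had 0.39 TPM from 1 count in the 182-base transcript Nr4a2-204 and 0.44 TPM from 13.71 counts in Nr4a2-205, both at 0 in replicate 1. Fosb was given to Fosb-205 in replicate 2 (45.72 counts) and to Fosb-201 and Fosb-207 in replicate 1 (24.25 and 16.49 counts). Fos-201, the coding transcript of Fos, held 78.45% of its TPM in replicate 2 and 69.46% in replicate 1, and 81.7% and 51.6% in the other quantification. Nr4a3-201 held 56.15% and 53.91% in replicates 2 and 1, and 60.6% and 61.9% in the other quantification. Nr4a3-203, with a longer reading frame of 656 codons, held 25.67% and 34.61%, and 11.7% and 24.0% in the other quantification.

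**Figure D5:**
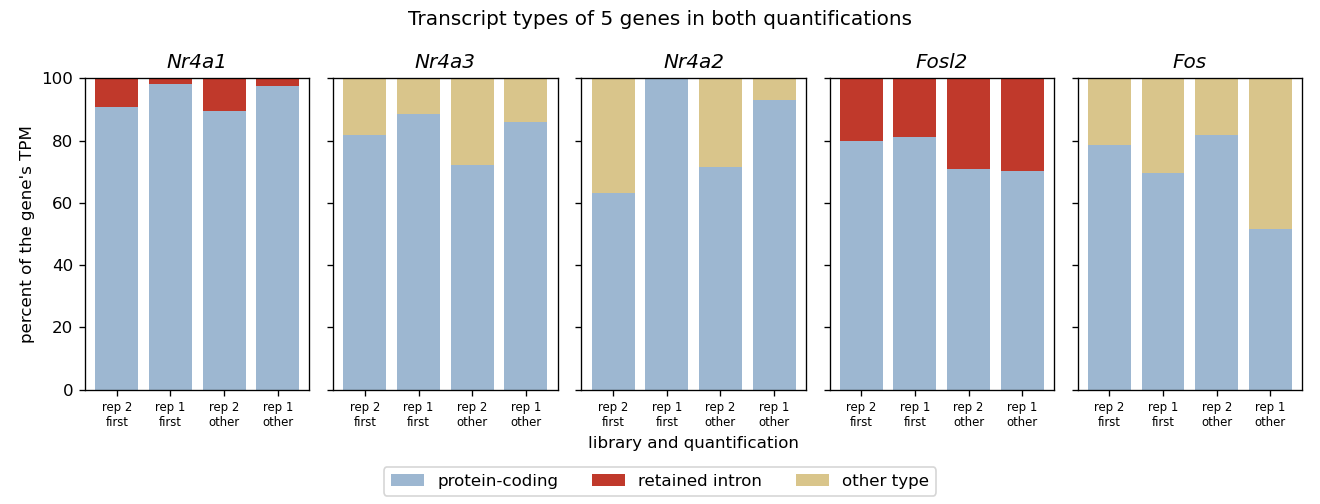
Percent of each gene's TPM in protein-coding, retained-intron and other transcript types for 5 genes, in replicates 2 and 1 and in both quantifications. The retained-intron part of Nr4a1 is larger in replicate 2 (9.07%) than in replicate 1 (1.87%), and that of Fosl2 is alike in both libraries.

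In the other quantification all 10 genes stood higher than in the first, Nr4a1 at 105 and 41.5 TPM, Fosl2 at 84.1 and 86.8 TPM and Fos at 6.18 and 3.18 TPM in replicates 2 and 1. Over all detected genes the median log2 ratio of the other quantification to the first was 0.58 in replicate 2 and 0.61 in replicate 1, with the middle 90% between 0.14 and 1.17 and between 0.19 and 1.20. The 10 genes lay between 0.30 and 0.79, within that range. Nr4a1 led in replicate 2 and Fosl2 in replicate 1 there, as in the first quantification. By mean, however, Fosl2 came first there at 85.5 ± 1.91 TPM (SD, n = 2), above Nr4a1 at 73.3 ± 45.0 TPM.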

How the data were processed

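The authors deposited a gene table and a transcript table with expected counts, TPM, credibility intervals of TPM (a signal range), a posterior SD of the count (a score) and each transcript's percent of its gene's TPM. The columns are named as RSEM names them. They also deposited a transcript table of another quantification with estimated counts and TPM, named as kallisto names them. Assembly mm10 and annotation M21 were used, per the file headers and accompanying notes. The sources used here do not give tools, versions or the use of strand or of CAST/EiJ variants. All 55536 gene IDs matched GENCODE M21. The table also holds 26248 features with a bare number as ID. Their share of counts was 1.80e-05% for replicate 2 and 1.96e-05% for replicate 1, and they were left out with the spike-ins.

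Expected counts were rounded and scaled with TMM (edgeR 4.0.16, R 4.3.3). Genes whose counts summed to 20 or more were compared with an exact two-sided binomial test in Python 3.11.15 with scipy 1.17.1, with Benjamini-Hochberg adjustment at 0.05, a 2-fold limit and Clopper-Pearson 95% intervals. A prior count of 0.5 was added for log2 ratios, which are replicate 2 over replicate 1. At a count of 0, up to 3 counts are allowed, or 0.0927 CPM in replicate 2 and 0.0832 CPM in replicate 1. Counting error alone is covered by intervals and this limit, since no molecular identifiers are stated. The steps were tested on simulated data. Alternatives were other scalings (DESeq2 1.42.0 size factors, totals, spike-ins), the other quantification, no filter, coding transcripts, other fold limits, a pseudocount of 1 and leaving out each library. Members and lists were chosen with earlier results of these data known. Named are the members, the 3 genes with the highest mean TPM of each pathway list and every called gene of those lists. A gene that this rule picks is left out of the text. Other genes are marked as chosen after their values were seen. Mkl1, Mkl2, Cyr61 and Ctgf were matched as Mrtfa, Mrtfb, Ccn1 and Ccn2.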

Additional observations from a re-analysis of the deposited data

How the results depend on the processing

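At the 2-fold limit, each of the 10 genes kept its call under all 6 alternatives of scaling, filter, quantification and coding transcripts. The log2 ratio ranged from 1.40 to 1.54 for Fos, from 1.27 to 1.36 for Nr4a1, from 0.90 to 0.97 for Junb and from 0.43 to 0.72 for Nr4a2. With no fold limit, adjusted p was 0.0857 for Nr4a3 and 0.0011 for Jund (lower in replicate 2) under total count scaling, against 0.0041 and 0.0813 with TMM. It was 0.0307 for Fosl2 under spike-in scaling, and 0.0221 for Fosl2 and 0.0494 for Fosb in the other quantification, against 0.143 and 0.186 for Fosl2 and Fosb in the first. The log2 ratios of Fosl2 and Jun were -0.02 and -0.0046 under total count scaling. No scaling moved the median of all genes by over 0.1. The count of genes called higher in replicate 2 was 2 under each of these, 5 with a 1.5-fold limit and 6 with no fold limit, since a lower limit admits smaller ratios. The log2 TPM ratio of Fos over Fosb was 1.47 with log2(TPM + 1), which compresses low levels. That of Junb over Jun ran from -0.76 without replicate 2 to 0.15 without replicate 1, so 1 library decides its sign in the first quantification. In the other quantification it was below 0 in both libraries, at -0.0073 in replicate 2 and -0.90 in replicate 1. Mean TPM rose by construction when rescaled over nuclear protein-coding genes, to 10.1 for Fos and 172 for Nr4a1. Nr4a1-201 held 0.0445% of its gene's TPM and Nr4a1-202 92.1% on average in the other quantification, and the cause was not tested. No paired analysis was possible because there is 1 group only. Fosb, with 62 and 48 counts in replicates 2 and 1, is limited by depth. The number of libraries limits every comparison between them.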
